A study of Saccharomyces cerevisiae with 16 samples.

Results

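The mitochondrial genome of the budding yeast Saccharomyces cerevisiae was examined as a set of 54 features out of 11997 features other than spike-ins. A feature was taken when its identifier starts with Q0, is 15S_rRNA or 21S_rRNA, or is a tRNA with a Q right after the closing bracket. The set holds 8 principal mRNAs (COX1, COX2, COX3, COB, ATP6, ATP8, OLI1 and VAR1), 2 ribosomal RNAs (rRNAs), 10 open reading frames (ORFs) inside introns, 10 other Q0 ORFs and 24 tRNAs. RPM1, the RNA of mitochondrial RNase P, is also encoded there but has another kind of identifier and was not included.

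Strand-specific total RNA was sequenced from 16 libraries in 8 groups of 2, which the series' design text calls biological replicates. All strains were haploid MATa with his3Δ1, leu2Δ0, met15Δ0 and ura3Δ0, and each genotype was a single strain: YAM1 (wild type), YAM202 (upf1Δ::kanMX4) and YAM6 (xrn1Δ::kanMX4). Cells growing in synthetic medium with glucose were either kept in glucose for 16 min or moved for 16 min to medium in which glycerol and ethanol replaced it (starvation). To wild-type cultures was then added the translation inhibitor cycloheximide at 100 µg/ml, or DMSO as its solvent control. For the mutants no solvent is named, and no exposure time is given for the drug. The groups are therefore wild type in glucose, wild type starved, both of these with cycloheximide, upf1 in glucose, upf1 starved, xrn1 in glucose and xrn1 starved.

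Yeast mitochondrial DNA encodes subunits of 3 respiratory complexes made on the organelle's own ribosomes: COX1, COX2 and COX3 of cytochrome c oxidase (complex IV), COB of the cytochrome bc1 complex (complex III), and ATP6, ATP8 and OLI1 of the ATP synthase. VAR1 encodes a protein of the small mitochondrial ribosomal subunit, and the 15S and 21S rRNAs form the core of that ribosome. The remaining subunits of these complexes, the mitochondrial RNA polymerase Rpo41 and the factors that process, translate and degrade mitochondrial RNA are encoded in the nucleus. Transcription starts at a conserved nonanucleotide promoter, long precursors are cut at tRNAs and at a dodecamer near mRNA 3′ ends, and RNA is degraded inside the organelle by the exoribonuclease Dss1 with the helicase Suv3. Upf1, the helicase of nonsense-mediated decay, and Xrn1, the 5′-3′ exonuclease, act in the cytoplasm. Cycloheximide acts on cytoplasmic and not on mitochondrial ribosomes.

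Levels are normalised reads per nucleotide of each feature. In every library the ERCC spike-in RNAs, added in a fixed amount to 1 µg of total RNA, summed to between 305 and 317 on this scale. A level is thus relative to total RNA, most of which is cytoplasmic rRNA before depletion, and not a number of molecules per cell. In these bulk samples fewer cells or mitochondria and less RNA in each cannot be told apart. Ribosomal RNA was depleted with a kit whose effect on the mitochondrial rRNAs is not stated, so their levels are compared between groups and only with that limit against mRNAs. Changes are log2 differences of group means on the scale log2(value + 0.00364) ± SE, from limma fitted across all 11606 tested features. A feature passed when its p, adjusted by Benjamini and Hochberg over all tested features, was under 0.05. Of the 54 mitochondrial features 50 reached the mean level of 0.00364 needed for testing. Those not tested were Q0010, Q0017, Q0144 (at 0 in all 16 libraries) and tM(CAU)Q2.

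The deletions matched the labels. UPF1 was at 0.0093 to 0.0152 in the 4 upf1 libraries against 0.582 and 0.615 in wild type in glucose. XRN1 was at 0.0693 to 0.0858 in the 4 xrn1 libraries against 1.14 and 1.19. Depth was uneven: 1 read was worth 1.88 to 2.21 normalised reads in the 4 cycloheximide libraries and 0.527 to 1.30 in the other 12. Those 4 libraries also carry another prefix in the deposited column names (D940 against D1277), whose meaning is not given in the sources used here. Drug and prefix coincide, so the drug and whatever the prefix stands for cannot be told apart in any cycloheximide result, nor in its difference between media.

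The sequences that organise these transcripts are shown next, from the RefSeq genome of build R64, all on the + strand and 5′ to 3′. The mitochondrial chromosome of 85779 bp has 17.1% G and C, and all 44 members with a RefSeq entry lie on its + strand. The nonanucleotide ATATAAGTA, in capitals below, was found 11 times on the + strand and 3 times on the other strand. It occurred within 700 bases upstream of 6 of 36 distinct starts (16.7%) and in 8.23% of all windows of that length on the + strand. The window length was chosen after the positions were seen, and a match is only a match of letters. The listed sites end 1 base before 21S_rRNA, 76 bases before 15S_rRNA, 461 before COX1, 487 before tE(UUC)Q (with COB downstream) and 566 before OLI1.
21S_rRNA (MT:57985-58014): ttattattattatatATATAAGTAgtaaaa
15S_rRNA (MT:6447-6476): aatttatttattattATATAAGTAataaat
COX1 (MT:13334-13363): aaataataagtattgATATAAGTAatagat
tE(UUC)Q and COB (MT:34863-34892): attataagaaatattATATAAGTAatatat
OLI1 (MT:46134-46163): atcttatacacatttATATAAGTAtatata

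The longest run shared by the 700 bases after each of COX1, ATP6, COB, VAR1, COX2 and COX3 was AATAATATTCTT, the dodecamer. In capitals below, it was found 9 times on the + strand and 2 times on the other, and 7.29% of all windows of 700 bases hold it. It lies 69 bases after the end of COX1, 87 after ATP6, 98 after COB, 580 after VAR1, 63 after COX2 and 101 after COX3. ATP8, upstream of ATP6, and OLI1 had none in that window. Both were left out of the 6 genes searched for the shared run, which thus describes those 6 genes and is no test of the motif.
COX1 (MT:26761-26790): taatataatAATAATATTCTTataaaaata
ATP6 (MT:29344-29373): cccccttttAATAATATTCTTttatctaat
COB (MT:43736-43765): taatactttAATAATATTCTTaaaaataat
VAR1 (MT:50668-50697): aataaataaAATAATATTCTTaatttttat
COX2 (MT:74567-74596): aataattatAATAATATTCTTaaatataat
COX3 (MT:80114-80143): tattattatAATAATATTCTTacaaatata

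Base composition differs among the coding sequences and is set beside the changes with cycloheximide further on. The first 147 coding bases of VAR1, ATP8 and COX3 follow, with every G and C in capitals. VAR1 has 9 such bases in this stretch (6.12%), ATP8 28 (19.0%) and COX3 45 (30.6%).
VAR1 (MT:48901-49047): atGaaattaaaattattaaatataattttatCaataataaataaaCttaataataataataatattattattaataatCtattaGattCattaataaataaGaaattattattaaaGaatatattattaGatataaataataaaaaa
ATP8 (MT:27666-27812): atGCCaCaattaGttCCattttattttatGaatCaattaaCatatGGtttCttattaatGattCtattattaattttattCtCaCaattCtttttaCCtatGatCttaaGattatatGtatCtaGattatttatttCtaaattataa
COX3 (MT:79213-79359): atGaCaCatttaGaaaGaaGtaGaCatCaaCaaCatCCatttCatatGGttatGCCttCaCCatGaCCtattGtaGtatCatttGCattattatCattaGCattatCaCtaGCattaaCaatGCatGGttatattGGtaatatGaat

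In wild type in glucose the most abundant mitochondrial mRNA per nucleotide was OLI1, which encodes the ring subunit of the ATP synthase. It stood at 19.2 and 21.4, above both rRNAs: 21S_rRNA was at 11.7 and 13.8 and 15S_rRNA at 9.12 and 10.8. COX2 followed at 5.06 and 5.71, then COX3 at 2.70 and 3.22, ATP6 at 2.23 and 2.79 and COX1 at 2.23 and 2.60. COB was lower at 0.780 and 0.948. The lowest were ATP8, a short ATP synthase subunit, at 0.269 and 0.355 and VAR1 at 0.109 and 0.128. The libraries of neighbours in this order did not overlap except between COX3 and ATP6 and between ATP6 and COX1.

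COX1, COB and 21S_rRNA needed a correction for these levels. Reading frames in their introns are annotated as separate features that overlap the gene, all but AI5_BETA and SCEI starting at the same base as it, and the deposited values show that a read lying over several features was divided equally among them. Counts recovered over the COX1 start, which is covered by 6 features, came in steps of 1/6 in all 16 libraries, and further in, under 5, 4 and 3 features, in steps of 1/5, 1/4 and 1/3. Under 2 features, steps of 1/2 were met in all 16 libraries in COB. In the COX1 stretch up to the end of AI5_ALPHA they were met in only 9, so its restored values are less exact. Adding the parts together raised COX1 3.15-fold, COB 2.22-fold and 21S_rRNA 1.01-fold in wild type in glucose. Restored values are used here wherever genes are ranked or read along their length. The tests use the values as deposited, and a repeat on restored values is given where it changes a call.

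In the other groups the order changed at few places. OLI1 was the highest and VAR1 the lowest of the 10 in all 8 groups, with ATP8 next to last. In both cycloheximide groups 15S_rRNA stood above 21S_rRNA on average, with overlapping libraries, and the ratio of 21S to 15S was 0.984 ± 0.0560 in glucose and 0.947 ± 0.0922 in starvation (SD, n = 2). Without the drug that ratio ran from 1.07 to 1.33 over 12 libraries. In xrn1 in glucose ATP6 moved past COX3 on average, 6.74 against 6.35, with overlapping libraries. In starved wild type COX1 stood above ATP6, 2.89 against 2.55, and there the libraries did not overlap, while in starved upf1, at 1.92 against 1.71, they did.

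**Figure D1:**
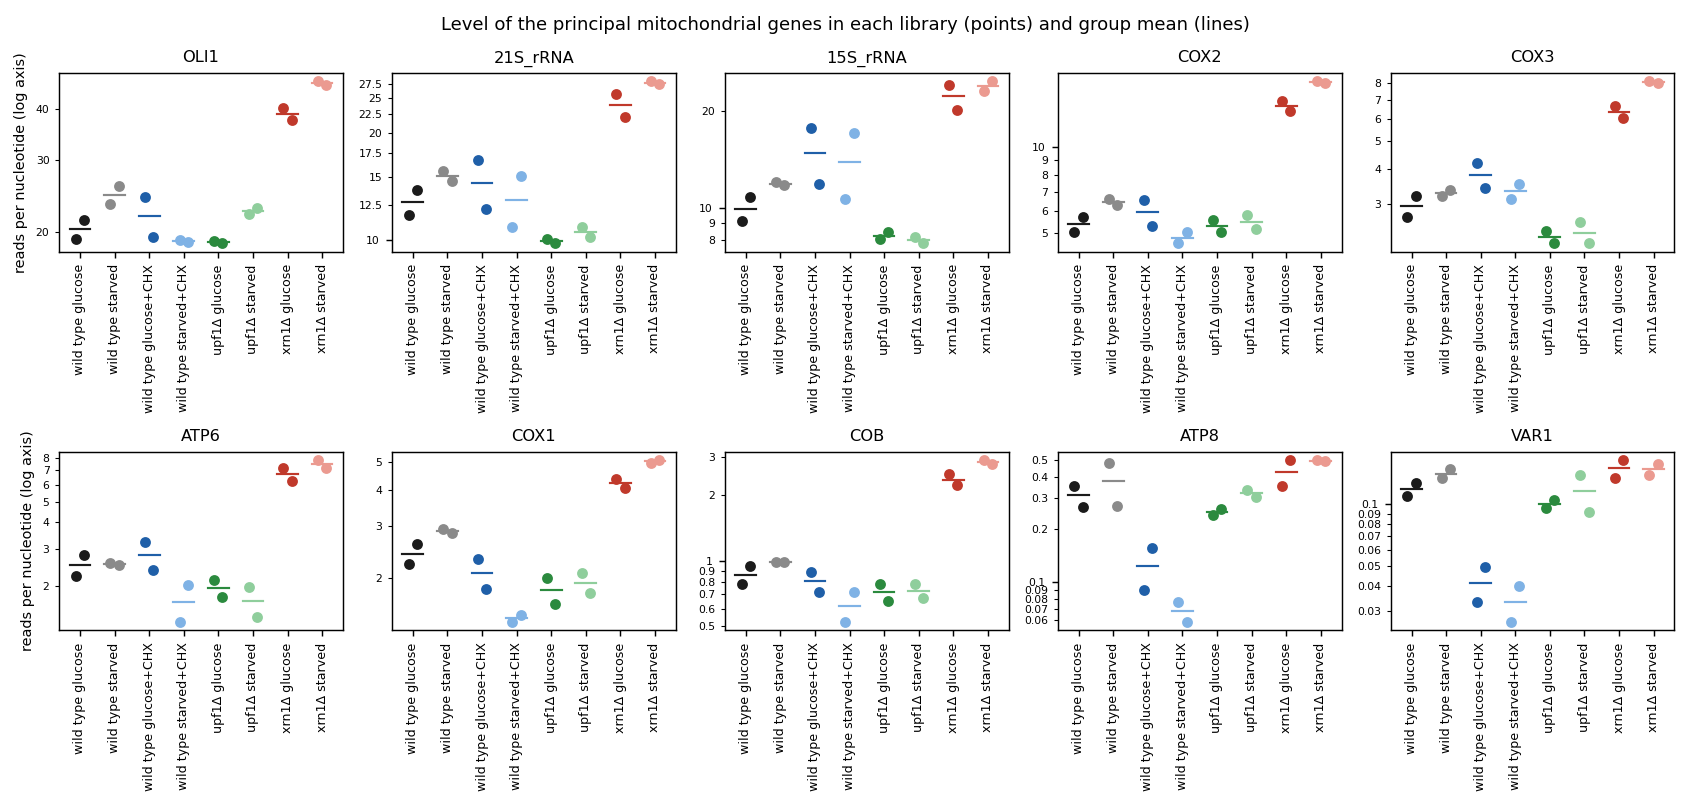
Normalised reads per nucleotide (log axis, its range set for each gene) of the 8 principal mRNAs and 2 rRNAs in each of the 16 libraries (points) with the group mean (lines), with COX1, COB and 21S_rRNA after split reads were restored. On this spike-in scale the xrn1 libraries lie above those of every other group for OLI1, COX2, COX3, ATP6, COX1, COB and both rRNAs, while ATP8 and VAR1 are lowest in the cycloheximide libraries.

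COX1 and COB are mosaics in which introns make up most of the length, and several introns carry maturases, proteins that help to splice their own intron. Read density along COX1 was far from even. In wild type in glucose the stretch from the start codon to the end of AI1, of which exons make up 6.75%, stood at 4.58 and 5.27. The next one, to the end of AI2 (1.44% exon), was at 3.18 and 3.64. Density was lowest up to the end of AI3, at 0.591 and 0.736. It was 1.82 and 2.11 up to the end of AI4, 1.19 and 1.48 up to the end of AI5_ALPHA, and 1.02 and 1.26 over the rest of the gene, of which 17.9% is exon. AI1 and AI2, which lie in group II introns, thus had more reads than the parts of the gene with more exon sequence.

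Relative to the last stretch, the AI1 stretch was at 434% ± 20.2 in wild type in glucose and 499% ± 12 in starvation (SD, n = 2). It was at 449% ± 10.5 in upf1 and 470% ± 0.262 in starved upf1. In xrn1 the value was 355% ± 2.41, or 362% ± 7.80 in starvation, and the cycloheximide groups had the lowest, 300% ± 1.16 in glucose and 294% ± 17.1 in starvation. The 8 libraries of xrn1 and of cycloheximide all lay below the 8 others, whose lowest was 419%. Moving the other way, the AI4 stretch was at 173% ± 6.67 of the last stretch in wild type in glucose but 209% ± 10.6 with cycloheximide and 201% ± 1.38 in xrn1.

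In COB the stretch to the end of BI2 had the highest density, 1.18 and 1.47 in wild type in glucose. It was followed by 0.604 and 0.685 up to the end of BI3, 0.536 and 0.719 up to the end of BI4, and 0.754 and 0.828 over the rest. The BI3 stretch set xrn1 apart: it was at 53.3% ± 0.975 of the last stretch in xrn1 in glucose and 57.1% ± 2.59 in starved xrn1, against 81.4% ± 1.79 in wild type in glucose. Over the 12 libraries that are not xrn1 it ranged from 73.4% to 104%, so the groups did not overlap. The remaining COB stretches of xrn1, at 164% ± 2.38 and 77.4% ± 5.08, lay within the range of the other groups.

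SCEI, the reading frame of the homing endonuclease I-SceI in the single intron of 21S_rRNA, was at 7.81% ± 0.514 of the rest of that gene in wild type in glucose. The value was 4.22% ± 0.512 with cycloheximide in glucose and 3.08% ± 0.135 with cycloheximide in starvation, below every library without the drug. In xrn1 it was 5.80% ± 0.149, and 5.07% ± 0.12 in starvation. These ratios are taken within a library, so a common scaling factor drops out. They are descriptions without a test, and reads in an intron do not tell precursor from excised intron.

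**Figure D2:**
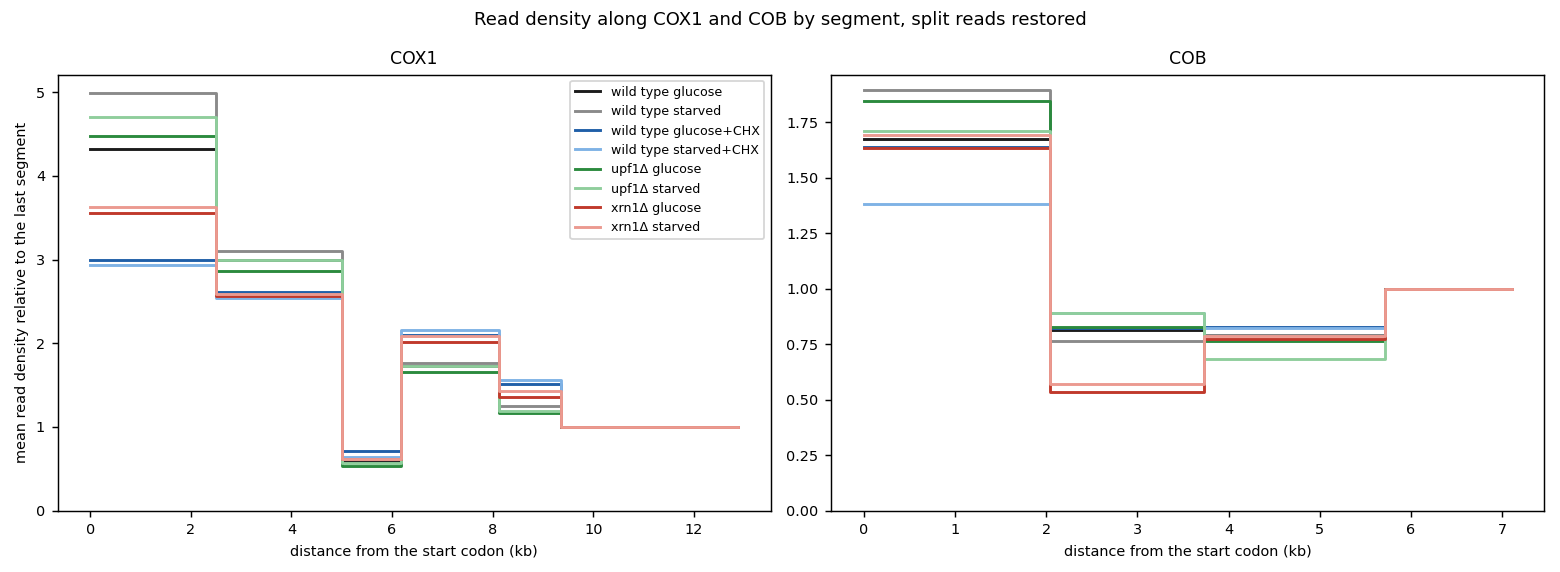
Mean read density of each stretch of COX1 (left) and COB (right) relative to the last stretch of the gene, against distance from the start codon in kb, 1 line per group, after split reads were restored. For COX1 the lines of xrn1 and of the cycloheximide groups are lowest at the start and highest in the 4th and 5th stretches, and for COB the xrn1 lines drop to 53.3% and 57.1% in the 2nd stretch.

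Mitochondrial tRNAs were barely captured. Summed over the 23 tRNAs with a RefSeq entry there were 92.0 to 110 reads per library in wild type in glucose, where 15S_rRNA had 21922 and 23444. The median tRNA stood at 0.0255 and 0.0293, and 5 of 24 were at 0 in each library. With cycloheximide the sum was only 6.84 to 18.5 reads in glucose and 12.7 to 19.3 in starvation. At this depth a tRNA with no reads could still have had a level of 0.0633 to 0.0934, 3 reads, in those libraries, which is above most tRNA levels without the drug. Changes of single tRNAs are therefore given as calls with their counts, and the size fitted for a tRNA at 0 depends on the pseudocount. Among the Q0 ORFs outside introns, Q0297 (1.19 and 1.29 in wild type in glucose), Q0255, which overlaps the end of COX2 (0.515 and 0.562), and Q0182 (0.181 and 0.247) had levels like those of the principal mRNAs. The other 7 did not exceed 0.0258 in any library. Q0297 moved in step with RPM1 over the 16 libraries, RPM1 being at 0.384 and 0.417 in wild type in glucose. Levels and changes of Q0297 are therefore not separate from those of RPM1.

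Starvation for 16 min changed few mitochondrial RNAs in wild type, and those that changed rose. Of 50 tested features 4 rose and 0 fell, while among all tested features 43.5% passed, 10% higher and 33.5% lower. The median change was 0.26 for the mitochondrial features and -0.27 for all features. OLI1 went from 19.2 and 21.4 to 23.5 and 25.9, a log2 change of 0.28 ± 0.10 (limma, adjusted p = 0.0316). The intron frame AI1 rose by 0.36 ± 0.13 (limma, adjusted p = 0.0414), and Q0297, which followed RPM1, by 0.37 ± 0.12 (adjusted p = 0.0223). Q0032 rose by 1.70 ± 0.50 (adjusted p = 0.0137) from values of 0.00236 and 0.00523, close to the pseudocount.

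None of the other 7 principal mRNAs passed, although 0 of the 8 had a negative change. COX2 went from 5.06 and 5.71 to 6.26 and 6.58 (0.26 ± 0.10, adjusted p = 0.0674), and ATP6 stood at 2.23 and 2.79 before and 2.53 and 2.57 after (0.03 ± 0.20). The rRNAs had changes of 0.26 ± 0.20 for 15S_rRNA and 0.25 ± 0.16 for 21S_rRNA. In 5 of the 8 mRNAs and in both rRNAs the starved libraries lay above both glucose libraries. The count of 4 became 0 without replicate 1 of wild type in glucose or replicate 2 of starved wild type, and 2 without replicate 1 of starved wild type. Scaled to nuclear protein-coding genes, which themselves had a median change of -0.42, 26 features rose and the median of all features moved from -0.27 to 0.01. On that scale 2877 of 11484 features were higher and 2706 lower.

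In upf1 starvation also raised 4 of 50 features and lowered 0, against 55% of all features passing, 4.29% higher and 50.8% lower. OLI1 rose from 18.8 and 19.0 to 22.2 and 23.0, by 0.26 ± 0.10 (limma, adjusted p = 0.0379). Q0297, which followed RPM1, rose by 0.34 ± 0.12 (adjusted p = 0.0285). The other calls were Q0092 and the serine tRNA tS(GCU)Q1, which went from 12.5 and 13.5 reads to 20.5 and 33.5. Q0092 was at 0 in both glucose libraries and at 0.00374 and 0.00389 after starvation, close to the pseudocount. Its call was lost with a pseudocount 10 times larger. The 8 mRNAs had a median of 0.06, beside 0.22 in wild type. With each of the 4 upf1 libraries left out in turn the count ranged from 0 to 4, and OLI1 no longer passed in any of these fits. Scaled to snoRNAs it was 0 features, and scaled to nuclear mRNAs 28 rose and 1 fell, the median of all features moving from -0.54 to -0.03. On the latter scale 2086 of 11484 features were higher and 2050 lower.

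In xrn1 0 features rose and 2 fell with starvation, while 3.03% of all features passed. Both are at very low level: Q0143 went from 0.00691 and 0.0170 to 0 in both libraries, and tT(XXX)Q2 from 0.0571 and 0.0704 to 0 in both. The mRNAs were COX3 at 6.04 and 6.67 before and 7.98 and 8.12 after (0.34 ± 0.12, adjusted p = 0.207) and COX2 at 13.4 and 14.5 before and 16.8 and 17.1 after (0.28 ± 0.10, adjusted p = 0.250). The libraries did not overlap, yet neither passed. At an unadjusted p under 0.05 there were 13 features, 3 of them mRNAs, beside 1412 of all 11606 features. A fit of the xrn1 groups alone called 15, of which 13 rose, where 1221 of 11648 features passed, 906 of them higher. The median change over the 8 mRNAs was 0.25, beside 0.03 over all features.

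Whether the response to starvation differed between genotypes was tested directly. For upf1 against wild type, 0 of 50 mitochondrial features passed with limma, where 4.90% of all features passed, 0.0948% higher and 4.81% lower. Without adjustment 2 mitochondrial features were under 0.05, beside 2197 of all 11606 features. For xrn1 against wild type 1 passed, tT(XXX)Q2, at -5.26 ± 1.43 (adjusted p = 0.0181), and 23.7% of all features passed, 20.3% higher and 3.39% lower. The principal mRNAs had differences between -0.24 and 0.13 for upf1 and between -0.26 and 0.19 for xrn1. For COX2, one of the more precisely measured, they were -0.21 ± 0.15 and 0.02 ± 0.15. These comparisons share the wild-type libraries with the starvation result above.

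In upf1 in glucose some mitochondrial RNAs were slightly lower than in wild type. Of 50 features 0 rose and 10 fell, where 42% of all features passed, 32.0% higher and 9.96% lower. The median was -0.30, against 0.18 over all features. COX1 stood at 0.701 and 0.833 in wild type and at 0.514 and 0.636 in upf1 as deposited (2.23 and 2.60 against 1.63 and 2.00 restored), a change of -0.42 ± 0.14 (limma, adjusted p = 0.0255). COX3 went from 2.70 and 3.22 to 2.2 and 2.42, -0.35 ± 0.12 (adjusted p = 0.0324). Neither pair of groups overlapped.

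Of the 10 intron frames 7 fell: the 6 in COX1 and SCEI, which had the largest change at -0.61 ± 0.18 (adjusted p = 0.0172). AI5_BETA fell by 0.53 ± 0.13 on the log2 scale. The frames of COX1 share reads with one another and with COX1, so they are not separate observations. Q0092 also passed as lower, from 0.00487 and 0.0054 to 0 in both libraries. These levels are close to the pseudocount, so no fold is given, and the call was lost with a pseudocount 10 times larger. COX2 was at 5.06 and 5.71 in wild type and 5.06 and 5.55 in upf1 (-0.02 ± 0.10), and OLI1 at 19.2 and 21.4 against 18.8 and 19.0 (-0.10 ± 0.10). 0 tRNAs passed. The call of COX1 and COX3 was lost without replicate 2 of wild type in glucose, without replicate 2 of upf1 and with scaling to snoRNAs. Under those settings the count of 10 became 0, 1 and 1.

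In xrn1 in glucose most principal mRNAs and both rRNAs were higher than in wild type relative to spike-ins and lower relative to nuclear mRNAs. Relative to spike-ins 22 of 50 mitochondrial features rose and 0 fell, with a median of 0.68, but this is a smaller share and a smaller change than over all features, of which 91.0% passed, 90.5% higher and 0.483% lower, with a median of 2.04. The direction depends on the scale. Relative to nuclear protein-coding genes, whose median rose by 2.06, 0 features rose and 32 fell. There 4312 of 11484 features were higher and 2905 lower, and the median of all features went from 2.04 to 0.16. With scaling to snoRNAs 23 rose, where 10508 of 11618 features did. On the spike-in scale 6 of 8 mRNAs, both rRNAs and all 10 intron frames rose, while on the nuclear mRNA scale all 8 mRNAs fell and, of 28 features other than tRNAs, 24 fell and 0 rose.

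COB and ATP6 had the largest rises among the mRNAs on the spike-in scale, and both were lower than wild type on the nuclear mRNA scale. COB, the cytochrome b of complex III, went from 0.355 and 0.423 to 1.02 and 1.14 as deposited, 2.78-fold or 1.47 ± 0.16 in log2 (limma, adjusted p = 1.34e-06), and was at -0.58 relative to nuclear mRNAs. ATP6 went from 2.23 and 2.79 to 6.25 and 7.23 (1.43 ± 0.20, against -0.64 on the other scale). COX2 rose from 5.06 and 5.71 to 13.4 and 14.5 (1.38 ± 0.10, against -0.69). COX3 went from 2.70 and 3.22 to 6.04 and 6.67 (1.11 ± 0.12, against -0.96). OLI1 rose from 19.2 and 21.4 to 37.7 and 40.3 (0.94 ± 0.10, against -1.13). In each of these 5 mRNAs both xrn1 libraries lay above both wild-type libraries.

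The least raised were ATP8, at 0.269 and 0.355 in wild type and 0.352 and 0.501 in xrn1 (0.44 ± 0.28, adjusted p = 0.157), and VAR1, at 0.109 and 0.128 against 0.135 and 0.165 (0.33 ± 0.23, adjusted p = 0.198). Neither passed. COX1 rose by 0.89 ± 0.14 (against -1.17 relative to nuclear mRNAs), less than COB, and the ratio of COX1 to COB with split reads restored was 1.79 ± 0.0496 in xrn1 and 2.80 ± 0.0827 in wild type in glucose (SD, n = 2). Starved xrn1 had 1.76 ± 0.0954, and the 12 libraries of the other 6 groups ranged from 2.07 to 2.99. VAR1 over COX3 was 0.0238 ± 0.00506 in xrn1 and 0.0401 ± 0.000545 in wild type.

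Both rRNAs also rose on the spike-in scale and were lower relative to nuclear mRNAs. 15S_rRNA went from 9.12 and 10.8 to 20.2 and 24.1 (1.15 ± 0.20, against -0.92 on the nuclear mRNA scale). 21S_rRNA went from 11.6 and 13.7 to 22.0 and 25.5 as deposited (0.91 ± 0.16, against -1.16). Of the intron frames, on the spike-in scale, BI2 rose by 1.52 ± 0.17 (against -0.53) and SCEI by 0.48 ± 0.18, with the COB frames (1.34 to 1.52) above the COX1 frames (0.59 to 0.86). Among the tRNAs only tV(UAC)Q passed, with 0 reads in both wild-type libraries and 1 in each xrn1 library, so no fold is given. Leaving out single libraries moved the count of 22 between 20 and 24.

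**Figure D3:**
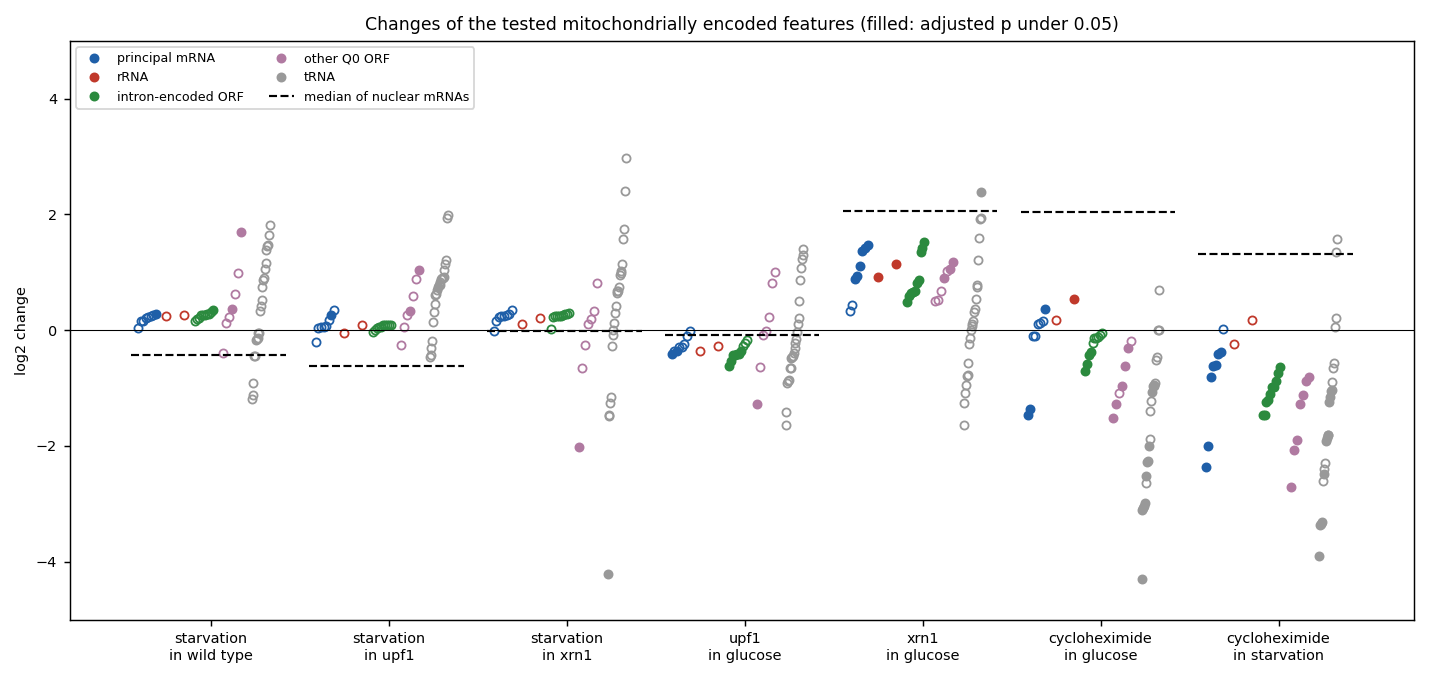
Log2 change of the 50 tested mitochondrial features in 7 comparisons by class (1 point per feature, filled where adjusted p is under 0.05), with the median of the nuclear mRNAs as a dashed line, all on the spike-in scale. In xrn1 and with cycloheximide the dashed line lies above nearly all mitochondrial features (medians of nuclear mRNAs 2.06, 2.05 and 1.31), so the rises in xrn1 become falls when scaled to nuclear mRNAs.

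With cycloheximide in glucose the mitochondrial features did not follow the general rise. Of 50, 2 rose and 21 fell on the spike-in scale, with a median of -0.67, while 92.1% of all features passed, 91.2% higher and 0.836% lower, with a median of 1.94. The median of -0.67 owes much to the tRNAs, which had few reads. Of the 27 features other than tRNAs 2 rose and 11 fell, with a median of -0.19, and the 8 mRNAs had a median of 0.0. Drug and column prefix cannot be told apart in this and the next comparisons. VAR1 went from 0.109 and 0.128 to 0.0332 and 0.0492, or from 191 and 201 reads to 18 and 31 (-1.47 ± 0.23, limma, adjusted p = 5.08e-05). ATP8 went from 0.269 and 0.355 to 0.0902 and 0.155, or from 52 and 76 reads to 6 and 12 (-1.36 ± 0.28, adjusted p = 0.000488). In both, the drug-treated libraries lay below the others. The ratio of ATP6 to ATP8 was 25.6 ± 14.4 with the drug and 8.3 ± 2.9 without (SD, n = 2), so it varied widely between libraries of 1 group.

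The remaining 6 mRNAs changed little against spike-ins. COX3 rose from 2.70 and 3.22 to 3.44 and 4.19 (0.36 ± 0.12, adjusted p = 0.0119) and 15S_rRNA from 9.12 and 10.8 to 11.9 and 17.7 (0.55 ± 0.20, adjusted p = 0.0204), but both calls were lost without replicate 1 of either group, and relative to nuclear mRNAs they were at -1.67 and -1.49. OLI1 was at 19.2 and 21.4 without and 19.5 and 24.4 with the drug (0.10 ± 0.10), COX2 at 5.06 and 5.71 and at 5.32 and 6.52 (0.13 ± 0.10), and COB at 0.355 and 0.423 and at 0.325 and 0.404 (-0.10 ± 0.16), with overlapping libraries in all 3. Scaled to nuclear mRNAs 39 features fell and 0 rose, the median of all features going from 1.94 to 0.09. On that scale 3677 of 11484 features were higher and 2894 lower. Scaled to snoRNAs 5 mitochondrial features rose and 13 fell, where 10872 of 11618 features rose and 45 fell. OLI1 (0.43), COX2 (0.46) and 21S_rRNA (0.50) passed as higher only there.

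Of the intron frames AI1, AI2, AI3 and SCEI fell, by 0.59 ± 0.13, 0.42 ± 0.13, 0.38 ± 0.13 and 0.71 ± 0.18 on the log2 scale. Read along COX1, the change was -0.59 in the AI1 stretch, -0.25 in the AI2 stretch, and 0.23, 0.21 and 0.31 in the next 3. Of the other Q0 ORFs 5 of 7 fell, Q0255 by 0.63 ± 0.08 from 0.515 and 0.562 to 0.336 and 0.359. Among the 7, Q0092, Q0142 and Q0143 were at 0 in both libraries with the drug and did not exceed 0.00897 without it. Low depth with the drug limits any call of theirs. Among the tRNAs 10 of 23 fell. One of them was tS(UGA)Q2, with 8 and 9 reads without and 0 with the drug, but 3 reads would have been a level of 0.0633 to 0.0737 there, beside 0.0677 and 0.0686 without, so no fold is given. tS(GCU)Q1, the tRNA with the most reads, went from 0.112 and 0.164 to 0.0514 and 0.0883 (-0.97 ± 0.27), on 2 and 4 reads with the drug. Without replicate 2 of wild type in glucose 15 features passed instead of 23.

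In starved cells most mitochondrial features fell with cycloheximide. 0 features rose and 35 of 50 fell, with a median of -1.11, against 74.1% of all features, 65.8% higher and 8.31% lower, with a median of 1.03. These included 7 of 8 mRNAs, all 10 intron frames, all 7 tested other Q0 ORFs and 11 of 23 tRNAs, but neither rRNA. Of those Q0 ORFs, Q0032, Q0092, Q0142 and Q0143 were at 0 in both drug-treated libraries. Without the drug they lay between 0.00218 and 0.0250, so their calls are limited by the low depth with the drug. ATP8 went from 0.272 and 0.481 to 0.0589 and 0.0767, or from 55 and 106 reads to 4 and 6 (-2.37 ± 0.28, adjusted p = 5.15e-06). VAR1 went from 0.135 and 0.148 to 0.0267 and 0.0398, on 17 and 22 reads (-2.0 ± 0.23, adjusted p = 4.41e-06). COX1 fell from 0.880 and 0.899 to 0.499 and 0.517 as deposited (-0.80 ± 0.14, adjusted p = 0.00012), or by 0.99 ± 0.13 with split reads restored.

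Smaller decreases were found in ATP6, from 2.53 and 2.57 to 1.37 and 2.02 (-0.62 ± 0.20), COB, from 0.431 and 0.436 to 0.242 and 0.337 (-0.60 ± 0.16), COX2, from 6.26 and 6.58 to 4.60 and 5.04 (-0.41 ± 0.10), and OLI1, from 23.5 and 25.9 to 18.9 and 19.1 (-0.38 ± 0.10). All 4 passed with non-overlapping libraries, and none passed when scaled to snoRNAs (-0.40, -0.38, -0.19 and -0.16). COB lost its call without replicate 1 of the drug-treated group, and ATP6 without it or replicate 1 of the controls. COX3 was at 3.21 and 3.37 without and 3.13 and 3.54 with the drug (0.02 ± 0.12). The rRNAs had values of 0.18 ± 0.20 for 15S_rRNA and -0.23 ± 0.16 for 21S_rRNA, and in both the drug-treated libraries stood wide apart, 10.7 and 17.1 for 15S_rRNA. Along COX1 the change was -1.47 in the AI1 stretch, with -0.99, -0.64, -0.41, -0.38 and -0.70 in the stretches after it.

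The effect of cycloheximide was lower in starvation than in glucose for 17 of 50 features and higher for 1 by the test of the difference, where 63.0% of all features passed, 2.06% higher and 60.9% lower. For all features the median difference was -0.88, larger than the -0.56 of the mitochondrial features. Of the mRNAs ATP8 (-1.01 ± 0.40, adjusted p = 0.0429), ATP6 (-0.77 ± 0.29, adjusted p = 0.0341), COX1 (-0.70 ± 0.19), COX2 (-0.54 ± 0.15) and OLI1 (-0.48 ± 0.14) passed. COB was at -0.50 ± 0.23 (adjusted p = 0.0738), and at -0.58 (adjusted p = 0.0406) with split reads restored. Relative to nuclear mRNAs little of the difference was left, with 3 features higher, 2 lower and a median of 0.01. Of 11484 features tested on that scale 1961 were higher and 2787 lower. Scaled to snoRNAs ATP8, ATP6, COX1 and COX2 lost the call and 1 of 8 mRNAs passed, where 6152 of 11618 features did. With no filter ATP8 and ATP6 lost the call. That of ATP8 was also lost with a pseudocount 10 times larger, with the replicate block and with the compared groups alone. The call of ATP8 was lost without replicate 2 of wild type in glucose, replicate 1 of starved wild type or replicate 2 of either drug-treated group (-0.60 to -0.83). That of ATP6 was lost without replicate 1 of wild type in glucose or of either drug-treated group, or without either starved wild-type replicate (-0.49 to -0.78).

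VAR1 and ATP8, lowest with the drug, are also among the genes poorest in G and C. Over the 10 principal genes the correlation of the change with G and C content was 0.68 in glucose and 0.62 in starvation (Pearson, a description over genes that share libraries). It was not confined to the drug: the same value was 0.74 for starvation in xrn1 and 0.47 for xrn1 in glucose, and -0.02 for starvation in wild type. VAR1, at 10.4%, and ATP8, at 19.0%, lay lowest in both media. OLI1, at 33.3%, was at 0.10 in glucose and -0.38 in starvation, and COX3, at 30.0%, at 0.36 and 0.02. COB, at 18.9%, was nonetheless at -0.10 in glucose. Over 5817 nuclear mRNAs the same correlation was -0.16 and -0.04. Whether base composition, depth or the column prefix had a part in the low VAR1 and ATP8 values was not tested.

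**Figure D4:**
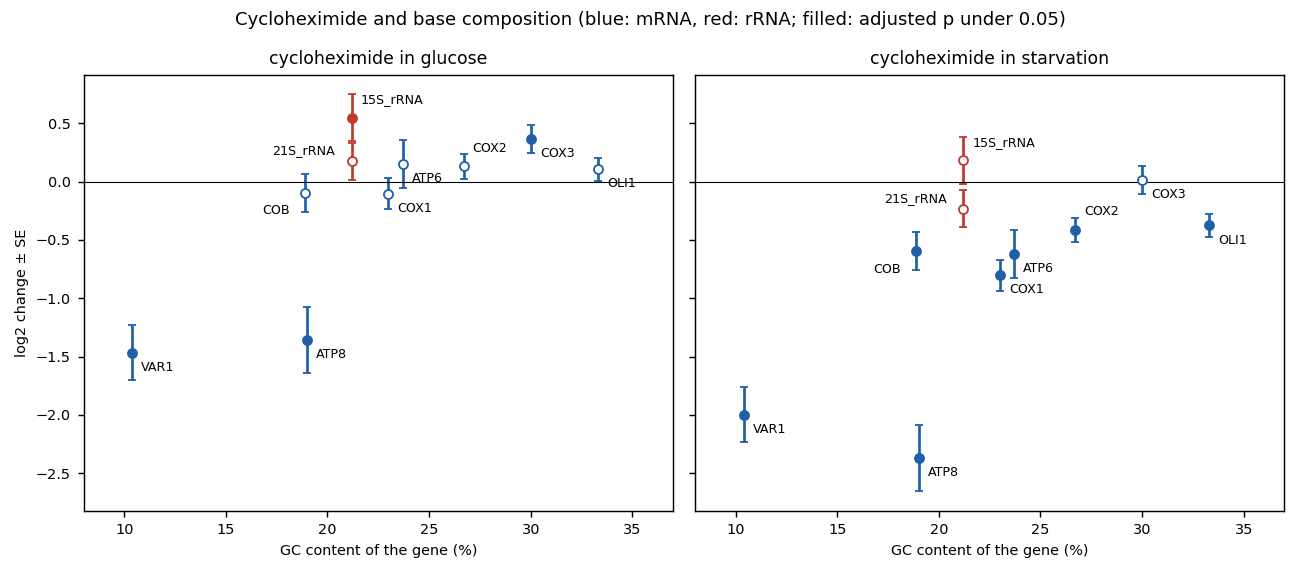
Log2 change ± SE with cycloheximide in glucose (left) and in starvation (right) on the spike-in scale against the G and C content of the gene in %, for the 8 principal mRNAs (blue) and 2 rRNAs (red), filled where adjusted p is under 0.05. VAR1 and ATP8 lie between -2.37 and -1.36 in both panels, and the rises of COX3 and 15S_rRNA in glucose become falls when scaled to nuclear mRNAs.

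The nuclear genes whose products work with these RNAs were followed as background. A list of 31 nuclear subunits of complex III, complex IV and the ATP synthase and a list of 35 nuclear factors for mitochondrial transcription, RNA turnover, splicing and translation were used. With starvation in wild type 1 partner subunit rose and 11 fell (median -0.20), where 33.5% of all features fell. Those that fell included 10 of the 14 subunits of the ATP synthase, such as ATP19 (-0.81 ± 0.13) and ATP18 (-0.74 ± 0.11). Of the factors 6 rose and 14 fell (median -0.22), with RPM2, the protein of mitochondrial RNase P, at 1.16 ± 0.16 and AEP3, which stabilises the ATP6 and ATP8 mRNA, at 0.87 ± 0.16. In starved upf1 19 partner subunits and 24 factors fell, and 0 and 5 rose, against upf1 in glucose, where 50.8% of all features fell and 4.29% rose. The largest were PET111, an activator of COX2 translation, at -1.20 ± 0.18 and MRS1, a splicing factor, at -1.17 ± 0.14. ATP15 was at -0.70 ± 0.09 and COX5A at -0.68 ± 0.09. In xrn1 starvation changed 0 of either list at the threshold (medians 0.16 and -0.02), where 3.03% of all features passed.

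In upf1 in glucose 18 partner subunits fell and 1 rose (median -0.33), near the mitochondrial mRNAs at -0.29, with ATP18 at -0.52 ± 0.11 and QCR6 of complex III at -0.51 ± 0.18. Of the factors 7 were higher and 4 lower, where 32.0% of all features were higher and 9.96% lower. Among them were AEP1, needed for OLI1 translation, at 1.04 ± 0.14, and PET122, an activator of COX3 translation, at 0.90 ± 0.18. In xrn1 all 31 subunits and all 35 factors rose on the spike-in scale (medians 2.35 and 2.57, beside 2.06 over nuclear mRNAs), where 90.5% of all features rose, among them QCR9 at 3.51 ± 0.11, ATP7 at 3.34 ± 0.13, RPM2 at 3.60 ± 0.16 and PET111 at 3.29 ± 0.18. Both lists also rose in full with cycloheximide on that scale, with medians of 1.59 and 2.29 in glucose and 1.85 and 1.72 in starvation, beside 2.05 and 1.31 over nuclear mRNAs and 91.2% and 65.8% of all features higher. There ATP14 was at 2.24 ± 0.11 and 2.66 ± 0.11. MTF2, a factor of mitochondrial RNA processing, was at 3.51 ± 0.18 in glucose, and the difference of its effect, starvation minus glucose, was -1.79 ± 0.25.

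Side by side, the median of the 8 mitochondrial mRNAs was 1.92 and 2.34 times that of their nuclear partner subunits in wild type in glucose and 2.75 and 2.89 times in starvation. In upf1 the ratio was 1.79 and 1.87, and 2.24 and 2.63 in starvation. It was 0.855 and 0.936 in xrn1 and 1.02 and 1.06 in starved xrn1. The lowest were with cycloheximide, 0.673 and 0.737 in glucose and 0.379 and 0.533 in starvation. The groups with xrn1 or cycloheximide did not overlap the others, and in each genotype without the drug the starved libraries lay above those in glucose. These ratios within a library carry no test.

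**Figure D5:**
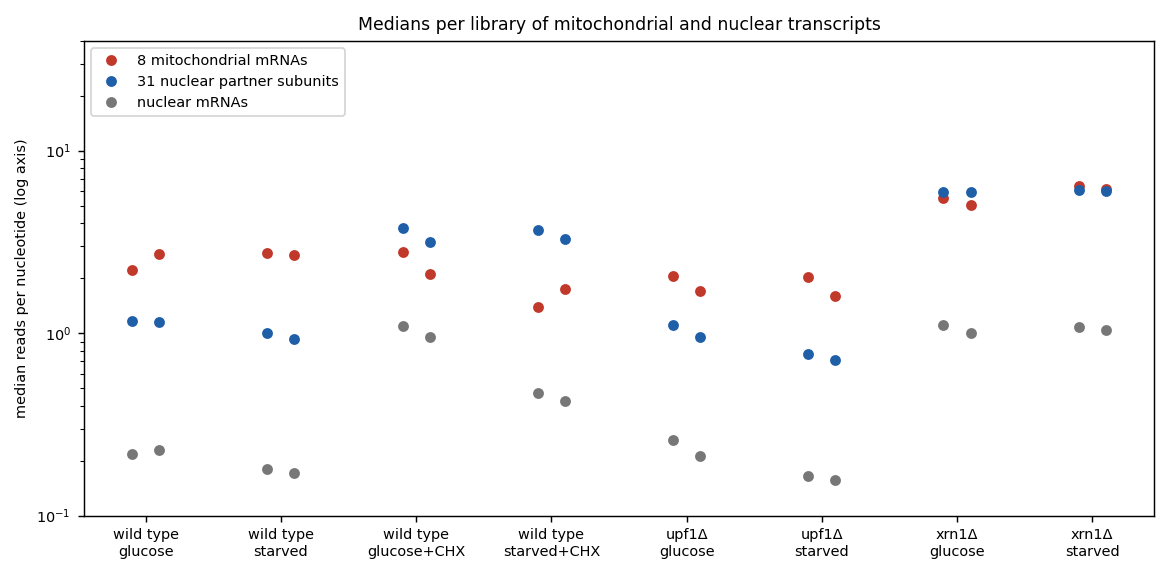
Median normalised reads per nucleotide (log axis) of the 8 mitochondrial mRNAs (red), 31 nuclear partner subunits (blue) and nuclear mRNAs (grey) in each of the 16 libraries. The red points lie above the blue in wild type and upf1 without drug, close to them in xrn1, and below them with cycloheximide.

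Over the 16 libraries the mitochondrial mRNAs most like COB in log2 level were COX2 (Pearson r = 0.990), ATP6 (0.980), COX1 (0.975) and OLI1 (0.970), while ATP8 had 0.595. The nuclear mRNAs most like it were CSS1 (0.955), HPF1 (0.934) and HAC1 (0.931), where the median nuclear mRNA had 0.60. The libraries share groups, depth and column prefix, so these values describe the pattern only.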

How the data were processed

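Total RNA was measured in 16 libraries, per the labels by hot phenol extraction, ribosomal RNA depletion and a stranded kit, with ERCC spike-ins. Per the submitters' processing notes build R64, DESeq2, featureCounts 2.0.0, Trim Galore and HISAT2 2.2.0 were used, with no settings or order given. The deposited values are a signal, coverage in normalised reads per nucleotide of each feature, in 1 table. That they were scaled to spike-ins was read from the values, since the spike-in sum is nearly equal in all libraries. 8 columns of group means made by the authors were not used (largest difference from the mean of the libraries 5.2e-12).

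Values were tested as log2(value + 0.00364), the 5th percentile of positive values, with limma 3.58.1 in R 4.3.3, with all 16 libraries and 8 groups in 1 fit, no covariate (8 residual and 4.43 prior degrees of freedom), and features whose mean reached the pseudocount. p-values were two-sided and adjusted by Benjamini and Hochberg over all tested features. A count model was not used because the values are not whole reads. For the 44 members with a RefSeq entry reads were recovered from the value, the length and the step of 1 read, and split reads over nested features were added together. These densities replaced planned ratios between nested features. Nuclear genes overlapped on the same strand would be reduced likewise and were not restored. The limit for a feature at 0 is 3 counts per library and covers counting error only. SDs measure the spread between 2 libraries of 1 strain. The p-values rest on the spread between libraries within the 8 groups, pooled over groups and moderated across features. Neither covers differences between strains of the same genotype.

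Named in the text are the 8 mRNAs and 2 rRNAs, up to 3 members per comparison with the largest rise or fall that passed without overlap, and the 3 nuclear genes most like COB. From each list up to 2 genes per comparison were named, those with the largest change that passed whatever its direction. The named genes of a list can therefore all go one way where others of it go the other way. Members described beyond this rule (the intron frames, Q0092, Q0143, Q0255, Q0297 and single tRNAs) were chosen after their values were seen. Members and lists were chosen with earlier results of these data known. Alternatives were the pseudocount, the filter, scaling to nuclear protein-coding genes or snoRNAs, the replicate block, the compared groups alone and each library left out. A fit without the cycloheximide libraries and one with split reads restored were added after the data were seen. The fit was tested on simulated data. Tables and figures were made with Python 3.11.15, pandas 2.3.3, numpy 2.4.6, matplotlib 3.10.9 and Biopython 1.88.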

Additional observations from a re-analysis of the deposited data

Results flagged for a closer look

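For 18 mitochondrial features the effect of cycloheximide in starvation differed from that in glucose by the test of the difference (limma, log2, starvation minus glucose). Drug and column prefix cannot be told apart in these values. Among the mRNAs the difference was -0.77 for ATP6, -1.01 for ATP8, -0.70 for COX1, -0.54 for COX2 and -0.48 for OLI1. Among the frames of COX1, which share reads, it was -0.87 for AI1, -0.81 for AI2, -0.82 for AI3, -0.76 for AI4, -0.75 for AI5_ALPHA and -1.05 for AI5_BETA. In COB it was -0.85 for BI2 and -0.61 for BI3, and in 21S_rRNA -0.76 for SCEI. The differences of Q0032 and Q0297 were -2.52 and -0.57, and Q0032 was at 0 in both starved libraries with the drug. The tRNAs tK(UUU)Q at -3.44 and tS(UGA)Q2 at 3.73 rest on few reads, and tS(UGA)Q2 had 0 reads with the drug in glucose.

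The effect of starvation in xrn1 differed from that in wild type for tT(XXX)Q2, by -5.26, a feature at 0 in both starved xrn1 libraries.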

How the results depend on the processing

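Scaling decided most. Relative to nuclear protein-coding genes 26 features instead of 4 passed for starvation in wild type, 39 instead of 23 for cycloheximide in glucose, 32 (all lower) instead of 22 (all higher) for xrn1, 29 instead of 4 for starvation in upf1, 0 instead of 2 for starvation in xrn1, 5 (3 higher) instead of 18 for the difference of the drug effect, and 1 instead of 0 and 9 instead of 1 for the starvation differences of upf1 and xrn1. Of all 11484 features tested on that scale 5583 passed for starvation in wild type, 6571 for cycloheximide in glucose and 7217 for xrn1. There 4136 passed for starvation in upf1, 1002 for starvation in xrn1 and 4748 for the difference of the drug effect. For the starvation differences of upf1 and xrn1 it was 995 and 3103. On that scale the change in cycloheximide in glucose was -1.49 for 15S_rRNA, -1.86 for 21S_rRNA, -1.88 for ATP6, -1.93 for OLI1, -1.90 for COX2 and -1.67 for COX3. With the drug in starvation it was -1.07 for 15S_rRNA and -1.24 for COX3. In xrn1 it was -0.92 for 15S_rRNA, -1.16 for 21S_rRNA, -1.17 for COX1, -1.60 for ATP8, -0.64 for ATP6, -0.58 for COB, -0.53 for BI2, -1.13 for OLI1, -1.67 for VAR1, -0.69 for COX2 and -0.96 for COX3. The drug difference of COX3 became 0.43 and the xrn1 starvation difference of COX1 -0.35. Scaled to snoRNAs the count was 1 for upf1, 0 for starvation in upf1 and 1 for its difference. With the compared groups alone it was 13 for starvation in wild type, 20 for upf1, 12 and 15 (13 higher) for starvation in upf1 and xrn1 and 4 for the xrn1 difference. Without the cycloheximide libraries it was 8 for starvation in wild type and 2 for the xrn1 difference. A smaller pseudocount gave 1 for starvation in xrn1 and 3 for the xrn1 difference, a larger one 2 for the latter. With no filter the counts were 1, 2 and 3 for starvation in xrn1 and the upf1 and xrn1 differences, and with a stricter filter 0 for starvation in xrn1 and 0 for its difference. Leaving out 1 library gave 0 to 6 for starvation in wild type, 15 to 25 and 26 to 33 for the drug in glucose and starvation, 0 to 11 for upf1, 20 to 24 for xrn1, 0 to 4 and 0 to 1 for starvation in upf1 and xrn1, 14 to 25 for the drug difference, 0 for the upf1 difference and 0 to 3 for the xrn1 difference, where without replicate 2 of xrn1 in glucose the 1 call was higher. Replicate numbers did not pair the samples (28 pairs of groups, r from -0.086 to 0.082); with the replicate block 2 features instead of 1 passed for the xrn1 difference and each other count stayed within 1.5 times. Of 2310 repeats of the 157 named changes, 2109 stayed on the same side of the threshold, 134 lost and 46 gained the call, and 21 passed with the opposite sign. A change of sign where neither fit passed is counted among the 2109. The cause was not tested. Depth limits the tRNAs, the Q0 ORFs of low level, ATP8 and VAR1 with cycloheximide.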
